A study of Mus musculus with 6 samples.

Results

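The cells described here were gated as conventional dendritic cells type 2 (cDC2) of mouse pancreatic tumours, 803 of the 47794 deposited cell barcodes (1.68%). They were chosen by measured values. A cell was taken when Cd74, H2-Aa, H2-Ab1 and H2-Eb1 made up at least 2% of its UMIs, it held at least 3 UMIs of Flt3, Cd209a, Mgl2, Plet1 and Napsa together, and C1qa, C1qb and C1qc stayed under 0.3%. A UMI is a molecular tag that counts 1 captured RNA molecule. The remaining conditions removed cells with over 4 UMIs of Ccr7, Fscn1, Ccl22 and Cacnb3, over 1 UMI of Cd3d, Cd3e, Cd3g and Trac, or any UMI of Cd79a, Cd79b, Siglech, Xcr1 or Clec9a. The tumours had been grown orthotopically in wild-type C57BL/6J mice by injecting KPC, a pancreatic cancer line of the mouse, and were taken 11 days after inoculation. In 3 mice the treatment was #44-anti-mVSIG4, an antibody against the macrophage complement receptor VSIG4, and in 3 mice it was IgG. Each mouse gave 1 library, named by its group and number, and no dose, schedule, age or sex is given in the labels. The gate held 146, 130 and 155 cells in the anti-VSIG4 libraries, against 158, 109 and 105 cells in the IgG libraries.

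Conventional dendritic cells take up antigen in tissues and carry it to lymph nodes, where they present it to T cells. The cDC2 subset presents peptides on MHC class II, chiefly to CD4 T cells, and depends on the transcription factor IRF4. In mice it is commonly split into an arm that arises close to the cDC1 lineage and an arm with monocyte-type surface genes, and inflamed tissue also holds monocyte-derived cells that resemble the subset. Napsa encodes an aspartic protease, Mgl2 and Cd209a encode C-type lectins, Plet1 encodes a surface protein of intestinal and other dendritic cells, and H2-DMb2 encodes a beta chain of the H2-DM complex that loads peptides onto MHC class II.

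Class II genes are the shared part of this programme, so the promoters of 2 of them are shown. H2-DMb2 is the only marker of the 5 that the gate did not use, and H2-Oa, a chain of the H2-O protein that restrains H2-DM, separated the gated cells from macrophages. Each sequence runs from 250 bases before to 50 bases after the RefSeq gene start (GRCm38.p6, plus strand), at chr17:34144999-34145298 for H2-DMb2 and chr17:34092129-34092428 for H2-Oa. Capitals mark the motif GATTGG, the core of the Y box bound by the factor NF-Y.
H2-DMb2: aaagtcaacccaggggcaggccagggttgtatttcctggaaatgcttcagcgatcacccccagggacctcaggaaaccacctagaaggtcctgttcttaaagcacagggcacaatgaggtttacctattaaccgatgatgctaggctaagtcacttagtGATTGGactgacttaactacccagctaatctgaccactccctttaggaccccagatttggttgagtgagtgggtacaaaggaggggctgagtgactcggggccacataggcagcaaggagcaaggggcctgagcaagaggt
H2-Oa: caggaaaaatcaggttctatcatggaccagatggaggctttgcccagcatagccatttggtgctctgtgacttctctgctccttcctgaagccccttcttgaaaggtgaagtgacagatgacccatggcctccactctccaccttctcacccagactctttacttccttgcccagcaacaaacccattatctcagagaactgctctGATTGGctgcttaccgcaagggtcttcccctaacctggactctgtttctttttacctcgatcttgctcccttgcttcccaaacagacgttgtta
The motif starts 91 bases before the gene start of H2-DMb2 and 44 bases before that of H2-Oa. Of 8 classical and accessory class II genes looked for, 7 had a RefSeq promoter (H2-Aa, H2-DMa, H2-DMb1, H2-DMb2, H2-Eb1, H2-Oa and H2-Ob), and 7 of those 7 held GATTGG on the strand of the gene. H2-DMa has a pair of promoter entries, and 1 of them holds the motif. Searched on both strands, GATTGG is in 16.1% of the 32851 promoters of the table, and on the strand of the gene alone in 8.71%. No other motif was searched. H2-Ab1 had no entry in the table. A match describes these letters and is not a measurement of binding.

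The libraries held between 26606234 and 47221033 UMIs in 6518 to 9566 barcodes, with at least 1000 UMIs in every barcode. The gated cells had a median of 5932 UMIs each, from 4672 in IgG 3 to 8852 in anti-VSIG4 3. Libraries also differed in kind. Barcodes with over 15% of their UMIs in genes spanning over 100 kb, called nucleus-like here, made up 0.651%, 1.47% and 9.74% of anti-VSIG4 libraries 1 to 3, against 1.06%, 21.9% and 48.6% of IgG libraries 1 to 3. Among gated cells the shares were 0%, 0.769% and 5.81% for anti-VSIG4, against 1.27%, 20.2% and 28.6% for IgG. The libraries anti-VSIG4 3, IgG 2 and IgG 3 are therefore called many-kind below and the other libraries few-kind, a split made after the values were seen. The first principal component of the gated counts held 42.4% of the variance and separated the same libraries, with scores of -17.1, -31.1 and 6.68 in the anti-VSIG4 libraries and -14.5, 23.2 and 32.9 in the IgG libraries. Of 19679 barcode names that occurred in 2 libraries, 0 had the same counts in both. Such names are serial numbers, and 4 of them were gated in both libraries.

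The gate has no clear gap at its edges. It took in 91 cells with exactly 3 UMIs of the 5 cDC2 genes and left out 169 that met every other condition with 2 UMIs. On C1q it took in 46 cells between 0.2% and 0.3% of UMIs and left out 52 cells between 0.3% and 0.4%. The median gated cell held 9 UMIs of the 5 genes and 4.84% of its UMIs in the 4 class II genes.

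The 5 marker genes differed in which gate held their highest level. Flt3, Cd209a, Mgl2, Plet1 and Napsa helped to select the cells, so their levels against other gates were set in part by the rule and are a description. Of the markers only H2-DMb2 was not used. All levels are in CPM, the UMIs of a gene scaled to a common total per library, averaged over 6 libraries. Gates for other cell types serve for description. The cDC2, cDC1 and migratory gates required high class II, the monocyte and T cell gates low class II, and the macrophage gate set no class II limit. Differences in other class II genes, H2-DMb2 and H2-Oa included, may therefore be set in part by these rules. Plet1 averaged 439 CPM in gated cDC2 (SD 185), against 259 CPM in migratory dendritic cells, 747 CPM in cDC1, 19.6 CPM in macrophages and 11.3 CPM in monocytes. Mgl2 averaged 851 CPM in gated cDC2 (SD 148), against 718 CPM in migratory dendritic cells, 430.4 CPM in cDC1, 239 CPM in macrophages and 23 CPM in monocytes. Cd209a averaged 75.9 CPM in gated cDC2 (SD 47.6), against 38.5 CPM in migratory dendritic cells, 5.95 CPM in cDC1, 1.02 CPM in macrophages and 9.37 CPM in monocytes. Plet1 was higher in cDC1 than in gated cDC2 in 6 of 6 libraries, and Cd209a was low in cDC1. The cDC1 gate held only 90 cells in all, from 7 in anti-VSIG4 3 to 30 in IgG 1, so its levels rest on few cells. Napsa averaged 774 CPM in gated cDC2 (SD 122), against 738 CPM in migratory dendritic cells, 413 CPM in cDC1, 63.4 CPM in macrophages and 197 CPM in monocytes. H2-DMb2 averaged 253 CPM in gated cDC2 (SD 69.0), against 355 CPM in migratory dendritic cells, 202 CPM in cDC1, 21.1 CPM in macrophages and 7.28 CPM in monocytes. H2-DMb2 was higher in gated cDC2 than in macrophages and lower than in migratory dendritic cells in 6 of 6 libraries.

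**Figure D1:**
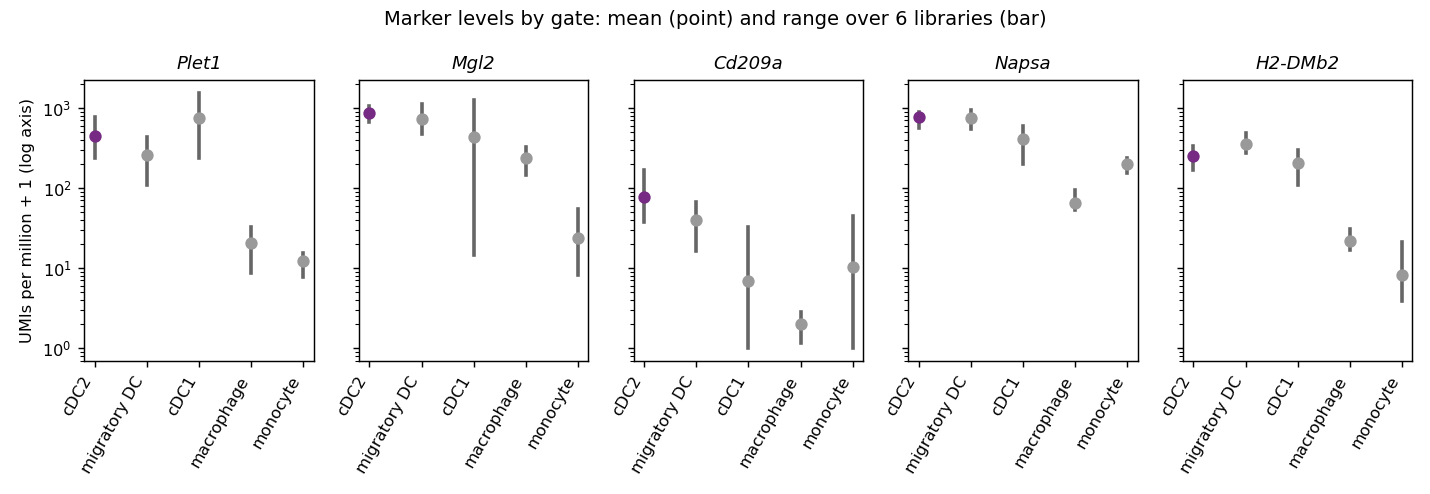
Levels of the 5 marker genes in CPM plus 1 (log axis) in cells of the cDC2, migratory dendritic cell, cDC1, macrophage and monocyte gates. Points are means and bars the range over 6 libraries. Plet1, Mgl2, Cd209a and Napsa were used to select the cDC2 gate. H2-DMb2, which was not, lies between 169 and 329 CPM in gated cDC2 and at 21.1 CPM on average in macrophages.

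Other defining genes gave a mixed picture. Irf4, the transcription factor of this subset, averaged 67.8 CPM in gated cDC2 and was higher there than in macrophages (16.5 CPM), monocytes (13.2 CPM) and cDC1 (10.2 CPM) in 6 of 6 libraries. Clec10a, a C-type lectin used to mark cDC2, averaged 138 CPM in gated cDC2, 102 CPM in the highest other gate and 40.6 CPM in macrophages. H2-Oa averaged 202 CPM in gated cDC2 and 7.97 CPM in macrophages. No comparison of Irf4 or H2-Oa with migratory dendritic cells is given here. Irf8, the factor of the cDC1 lineage, averaged 214 CPM in gated cDC2 and 889 CPM in the cDC1 gate. Zbtb46, a factor of conventional dendritic cells, averaged 8.26 CPM in gated cDC2, below migratory dendritic cells (32.8 CPM) in 6 of 6 libraries. After each cell was thinned to 1000 UMIs, Zbtb46 was seen in 0.623% of gated cDC2, in 1.30% of T cells and in 0.212% of macrophages. Its share in gated cDC2 was thus not above that in T cells at this depth. By the same measure Irf4 was seen in 5.85% of gated cDC2, 3.13% of T cells and 1.38% of macrophages. Flt3, the receptor for the growth factor of dendritic cells, was seen in 2.99% of gated cDC2 and 0.179% of T cells. H2-DMb2 was seen in 19.7% of gated cDC2 and 0.268% of T cells, which were gated on low class II. Unthinned, 12% of gated cDC2 held a Flt3 UMI and 53.1% a UMI of H2-DMb2. T cells had a median of 3455 UMIs.

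Monocyte and macrophage genes were present as well. A UMI of Cd14 was found in 82.2% of gated cells and of C1qa in 63.8%, against 72.7% for Mgl2 and 88.7% for Napsa. How many gated cells are monocyte-derived cells or macrophages was not tested, so the name cDC2 stands for the gate. Cd14, a co-receptor for lipopolysaccharide, averaged 955 CPM in gated cDC2, against 1939 CPM in macrophages and 567 CPM in migratory dendritic cells. Fcgr1, an Fc receptor of monocytes and macrophages, averaged 149.8 CPM in gated cDC2 and 290.2 CPM in macrophages. Both lay below macrophages and above migratory dendritic cells in 6 of 6 libraries. Among genes of at least 100 CPM, the ratio of mean CPM plus 10 over the same in the highest other gate was led by Ppp1r14a, an inhibitor of myosin phosphatase, at 1.68, Hbb-bs, a haemoglobin chain, at 1.64 and Ccdc162 at 1.40. The Hbb-bs level rests on 1 library, since 5 red cell genes together gave 2383 CPM in anti-VSIG4 1 and at most 114 CPM in any other library.

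The gated cells changed composition along the gate. Cells with 3 or 4 UMIs of the 5 cDC2 genes (190 cells, median 4053 UMIs in all) held 1592 CPM of Cd14, 2547 CPM of Lyz2, 5780 CPM of Apoe and 1599.5 CPM of Arg1. In cells with 5 to 9 UMIs (217 cells, median 4393 UMIs) the means were 1243 CPM of Cd14, 1325 CPM of Lyz2, 1915 CPM of Apoe and 969.7 CPM of Arg1. In cells with 10 or more UMIs (396 cells, median 8072 UMIs) they were 687 CPM of Cd14, 1016 CPM of Lyz2, 986 CPM of Apoe and 478 CPM of Arg1. Lyz2 encodes lysozyme, Apoe a lipid carrier of macrophages and Arg1 an arginine-degrading enzyme of tumour macrophages. Class II accessory genes ran the other way. H2-DMb2 averaged 69.7 CPM at 3 or 4 UMIs, 161 CPM at 5 to 9 UMIs and 331 CPM at 10 or more, and H2-Oa averaged 48.2 CPM, 151 CPM and 259 CPM in the same order. Itgax, the CD11c integrin of dendritic cells, averaged 98.2 CPM, 127 CPM and 173 CPM. Other cDC2 genes did not follow this order. Sirpa, a surface receptor of cDC2 and macrophages, averaged 138 CPM at 3 or 4 UMIs, 117 CPM at 5 to 9 UMIs and 86.8 CPM at 10 or more. Irf4 was highest in the middle bin, at 43.4 CPM, 90.8 CPM and 67.2 CPM in the same order. Zbtb46 was 9.5 CPM, 7.97 CPM and 8.91 CPM in the same order. Cells with more UMIs in all also hold more UMIs of the gate genes, so the 3 bins differ in depth. The bins were drawn after the values were seen and carry no test.

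**Figure D2:**
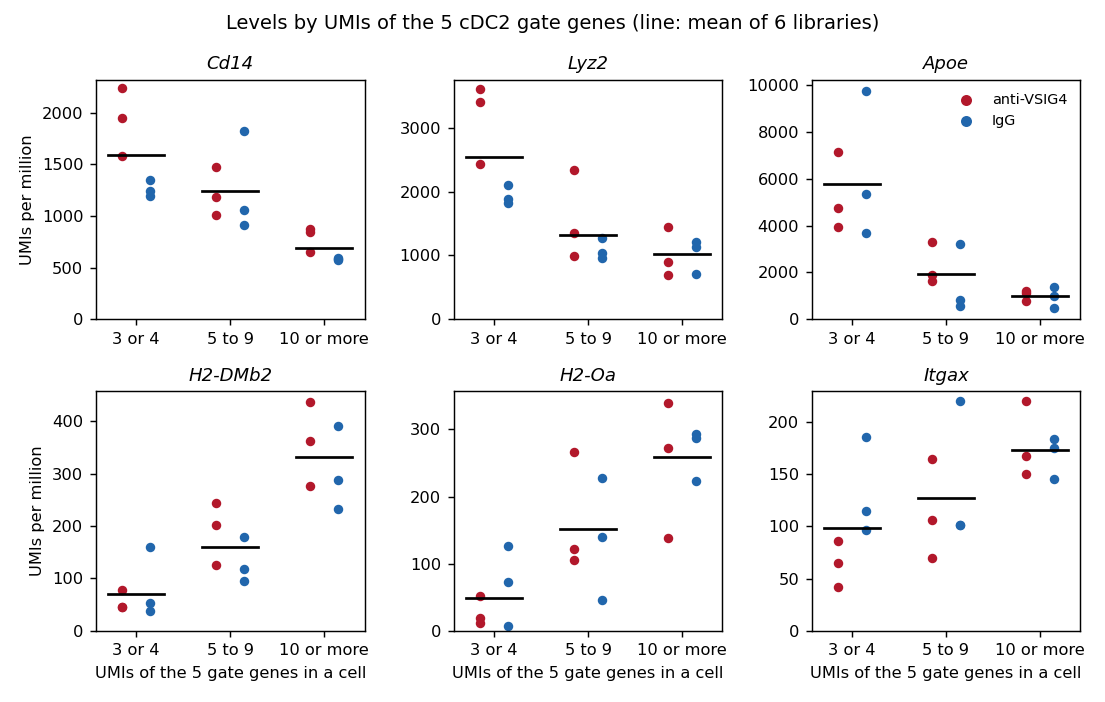
Levels in CPM of 6 genes (vertical axis) in gated cells with 3 or 4, 5 to 9, or 10 or more UMIs of the 5 cDC2 gate genes (horizontal axis). Points are libraries, anti-VSIG4 left of IgG, and lines are means of 6 libraries. Cd14, Lyz2 and Apoe are highest in the first bin, and H2-DMb2, H2-Oa and Itgax in the last.

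Plet1 and Cd209a were seldom found in the same gated cell. Since a gate on a sum of genes makes its genes trade off against one another, the comparison used the 726 cells that held at least 3 UMIs of Napsa and Mgl2 and so did not depend on Plet1 or Cd209a. Of these, 286 held Plet1 without Cd209a, 92 held Cd209a without Plet1, 26 held both and 322 held neither. Cd209a was found in 8.33% of cells with Plet1 and in 22.2% of cells without it. The share was lower in cells with Plet1 in each library, at 9.76%, 3.57% and 10% in the anti-VSIG4 libraries against 11.9%, 19.7% and 18.2% of cells without Plet1, and at 14.8%, 3.23% and 3.13% in the IgG libraries against 34.1%, 29.0% and 13.8%. After thinning to 1000 UMIs the shares were 3.14% (5 of 159 cells with Plet1) and 6.17% (35 of 567 cells without it).

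Genes were then set side by side in cells with Plet1 and without Cd209a and in cells with Cd209a and without Plet1. Itgae, Ppp1r1a, Serpinb9, Ms4a4c, S100a4, Clec10a and Ly6c2 were picked for their ratio between these cells, so that their direction is given by the choice. Itgae, the CD103 integrin also found on cDC1, averaged 176 CPM in Plet1 cells (SD 64.6), against 9 CPM in Cd209a cells (SD 14.4) and 12.2 CPM in cells with neither. Ppp1r1a, a phosphatase inhibitor, averaged 127 CPM in Plet1 cells (SD 27.5), against 0 in every library of Cd209a cells and 1.87 CPM in cells with neither. Epcam, an epithelial adhesion protein also carried by some dendritic cells, averaged 38.4 CPM in Plet1 cells and 5.09 CPM in Cd209a cells. Serpinb9, a granzyme B inhibitor, averaged 112 CPM in Plet1 cells and 4.12 CPM in Cd209a cells. Further genes were picked from a fixed list for being higher on the same side in 6 of 6 libraries, so their direction is also given by the choice. For Plet1 cells they were Epcam, Itgax (197 CPM in Plet1 cells against 79.3 CPM in Cd209a cells) and the dendritic transcription factor Zfp366 (56.2 CPM against 11.6 CPM). Others of that list went either way, such as Sirpa, Ffar2 and Rbpj, each higher in Plet1 cells in 3 of 6 libraries. Relb, a transcription factor of dendritic cell maturation, averaged 44.3 CPM in Plet1 cells and 35.0 CPM in Cd209a cells and was higher in Plet1 cells in 4 of 6 libraries.

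The genes picked for a high level in Cd209a cells included surface and monocyte genes. Ms4a4c, a membrane protein of monocytes, averaged 269 CPM in Cd209a cells (SD 52.7), against 23.1 CPM in Plet1 cells (SD 8.38) and 75.3 CPM in cells with neither. S100a4, a calcium-binding protein, averaged 1877 CPM in Cd209a cells (SD 357), against 267 CPM in Plet1 cells. Clec10a averaged 371 CPM in Cd209a cells and 91.1 CPM in Plet1 cells. Ly6c2, a surface protein of inflammatory monocytes, averaged 254 CPM in Cd209a cells and 45.1 CPM in Plet1 cells. From the fixed list, the genes picked for being higher in Cd209a cells in 6 of 6 libraries included the chemokine receptor Ccr2 (75.8 CPM in Cd209a cells against 12.6 CPM in Plet1 cells). Cd7 (84.3 CPM against 12.5 CPM), Tmem176a (231 CPM against 75.7 CPM) and the transcription factor Bcl11a (50.2 CPM against 11.4 CPM) were picked in the same way. Many other genes of the list went either way. Ms4a4c has close relatives in its family, and reads could be split among them. Cells with neither gene were highest in Lyz2 (2434 CPM) and Cd14 (1545 CPM), against 504 CPM of Lyz2 and 519.8 CPM of Cd14 in Plet1 cells. The Cd209a cells numbered as few as 5 in anti-VSIG4 1 and 8 in IgG 3. Nucleus-like barcodes made up 4.55% of Plet1 cells, 3.26% of Cd209a cells and 9.94% of cells with neither. The split was made after the values were seen and carries no test.

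**Figure D3:**
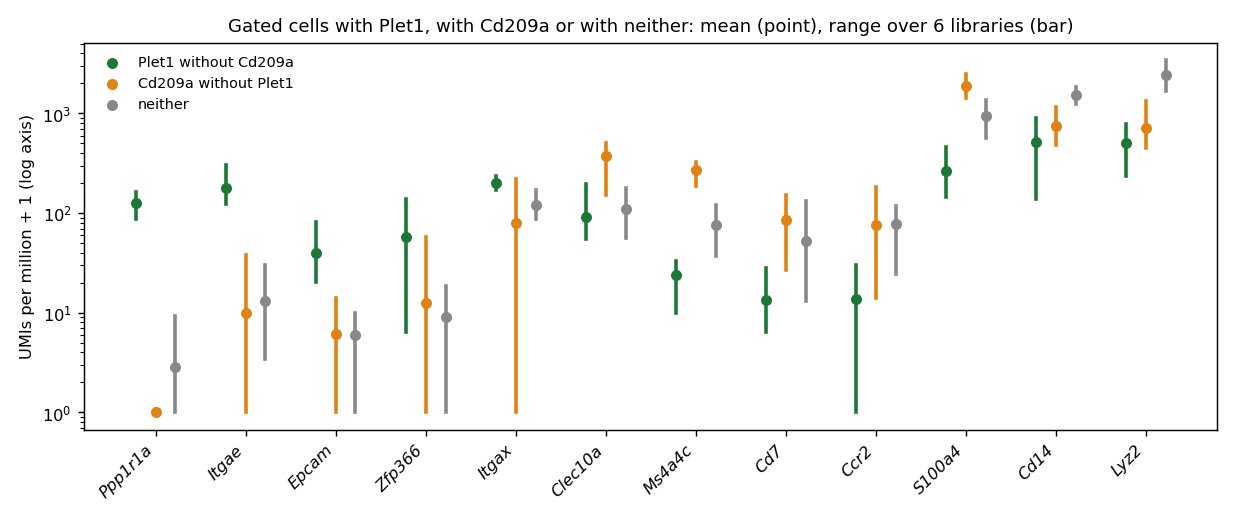
Levels of 12 genes in CPM plus 1 (log axis) in gated cells with Plet1 without Cd209a, with Cd209a without Plet1, and with neither, among the 726 cells with at least 3 UMIs of Napsa and Mgl2. Points are means and bars the range over 6 libraries, and Itgae and Ms4a4c show no overlap between the Plet1 and Cd209a cells.

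Anti-VSIG4 and IgG tumours did not differ in how many cells fell in the gate beyond the spread between mice. Gated cDC2 made up 1.53%, 1.99% and 2.28% of barcodes in the anti-VSIG4 libraries, against 2.20%, 1.33% and 1.10% in the IgG libraries. The groups overlapped, because IgG 1 had nearly the highest share. The means were 1.94% ± 0.377 for anti-VSIG4 and 1.54% ± 0.584 for IgG (SD, n = 3 each), a difference of 0.393 points (exact two-sided permutation test, p = 0.4, where 3 against 3 cannot go below 0.1). Within the few-kind libraries the difference was -0.440 points, and within the many-kind libraries it was 1.07 points. Nucleus-like barcodes count in the total of each library. Without them the shares were 1.54%, 2.01% and 2.38% for anti-VSIG4, against 2.20%, 1.36% and 1.53% for IgG. The difference was then 0.283 points (exact permutation p = 0.5). The exact binomial 95% interval of a single share was 1.30% to 1.80% in anti-VSIG4 1 and 0.899% to 1.33% in IgG 3, and covers counting error only. Of all cells in the cDC2, cDC1 and migratory gates, gated cDC2 were 64.9%, 58.3% and 68.9% in the anti-VSIG4 libraries, against 59.2%, 65.3% and 65.2% in the IgG libraries. The means were 64.0% ± 5.35 for anti-VSIG4 and 63.2% ± 3.50 for IgG (SD, n = 3 each; exact permutation p = 1), and the direction turned without anti-VSIG4 3 (-1.63 points) and without IgG 1 (-1.22 points).

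The share of cells with RNA of dividing cells overlapped between the groups, except when the deepest cells were left out. After thinning to 1000 UMIs, at least 3 UMIs of 28 proliferation genes were found in 5.48%, 5.38% and 7.10% of gated cDC2 in the anti-VSIG4 libraries, against 5.06%, 6.42% and 4.76% in the IgG libraries. The means were 5.99% ± 0.962 for anti-VSIG4 and 5.42% ± 0.884 for IgG (SD, n = 3 each; exact permutation p = 0.5). The counts behind them are small, 8, 7 and 11 cells for anti-VSIG4 and 8, 7 and 5 cells for IgG. Without thinning the means were 36.0% for anti-VSIG4 and 29.0% for IgG (p = 0.2, exact permutation test), and cells of anti-VSIG4 3 were the deepest. Without the 6% of cells with most UMIs, the thinned shares were 5.11%, 4.92% and 7.59% for anti-VSIG4, against 3.38%, 4.90% and 4.08% for IgG. The groups then did not overlap, and the difference was 1.75 points (exact permutation p = 0.1, the smallest that 3 against 3 can give).

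**Figure D4:**
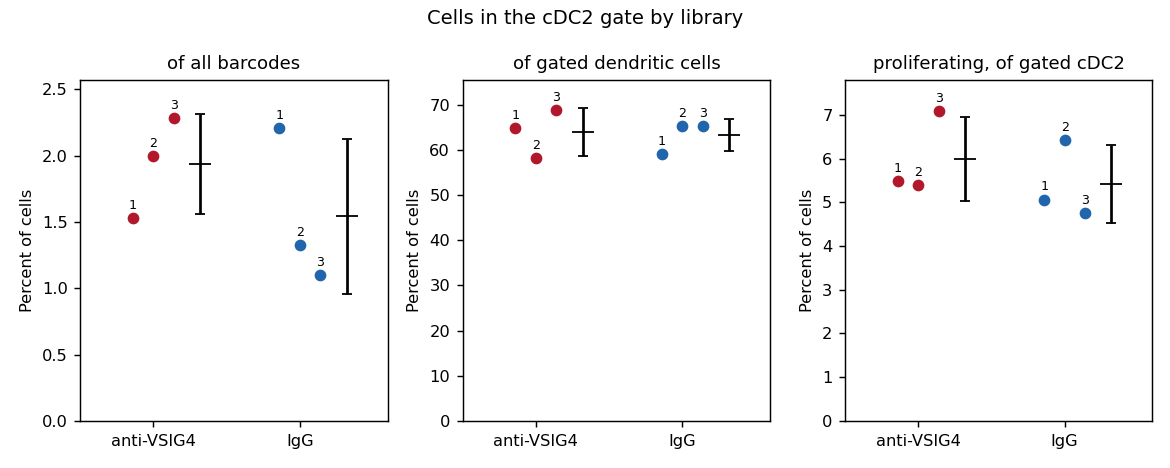
Percent of all barcodes in the cDC2 gate, of all gated dendritic cells in the cDC2 gate, and of gated cDC2 with at least 3 UMIs of proliferation genes after thinning. Numbered points are libraries, anti-VSIG4 left of IgG, with mean and SD as bars. The groups overlap in all 3 panels.

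Gene levels in gated cDC2 were then compared between treatments on counts summed per library. With edgeR's quasi-likelihood test, 1 of 6571 genes passed a Benjamini-Hochberg adjusted p of 0.05 (0.0152% of those tested), and 474 had an unadjusted p under 0.05. The gene, named after its values were seen because it lies under 20 CPM, was Csta2, an inhibitor of cysteine proteases of the stefin family. It was counted with 22, 20 and 37 UMIs in 13, 7 and 10 gated cells of the anti-VSIG4 libraries, against 1, 0 and 0 UMIs in the IgG libraries. It was at most 23.7 CPM in the anti-VSIG4 libraries and at most 1.06 CPM in the IgG libraries, with no overlap. The pooled ratio of 79 to 1 UMIs, scaled by the totals, was 56.2-fold (exact binomial 95% interval 9.79 to 2246, counting error only), and the adjusted p was 0.0115 (edgeR). Of the 37 UMIs in anti-VSIG4 3, 17 were in 1 cell. Over all barcodes of the libraries Csta2 was at 21.8, 29.9 and 6.38 CPM for anti-VSIG4, against 3.91, 3.59 and 2.37 CPM for IgG, and the neutrophil list stood at 4379, 1170 and 1146 CPM in gated cells for anti-VSIG4, against 1999, 1094 and 602 CPM for IgG. Their part in the result was not tested. Csta2 passed the filter on low counts through the anti-VSIG4 libraries alone, so it could enter the test only by differing. It lies in a family of near-identical stefin genes, so its counts are uncertain. The call was lost when anti-VSIG4 1 (adjusted p = 0.180), anti-VSIG4 2 (0.0793), anti-VSIG4 3 (0.0638) or IgG 3 (0.0720) was left out of the edgeR fit.

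The other genes with the smallest p did not pass, and are given by their values. Those higher with anti-VSIG4 come first. Cxcl14, a chemokine, was at 35.6, 28.5 and 38.0 CPM in the anti-VSIG4 libraries, against 8.45, 11.3 and 1.48 CPM in the IgG libraries (log2 change 2.27 ± 0.47, edgeR adjusted p = 0.355). These levels rest on 34, 24 and 61 UMIs with anti-VSIG4, against 8, 9 and 1 UMIs with IgG. Cxcl14 passed the filter on low counts and the 20 CPM limit for naming only through the anti-VSIG4 libraries, where it is high. Id2, a transcription regulator needed for dendritic cells, was at 294, 237 and 272 CPM with anti-VSIG4, against 149, 162 and 126 CPM with IgG (0.95 ± 0.22, edgeR adjusted p = 0.376). Fn1, encoding fibronectin, was at 172, 284 and 249 CPM with anti-VSIG4, against 70.7, 129.5 and 134.6 CPM with IgG (1.16 ± 0.28, edgeR adjusted p = 0.381). In these 3 genes no anti-VSIG4 library overlapped an IgG library. Il1b, the inflammatory cytokine interleukin-1 beta, was at 7049, 6657 and 7203 CPM with anti-VSIG4, against 5651, 4514 and 4493 CPM with IgG (0.58 ± 0.16, edgeR adjusted p = 0.476). Spp1 (osteopontin), Ctsl (cathepsin L), the lectin receptor Clec4n, the survival gene Bcl2a1a and the mitochondrial ribosomal gene Mrpl36 also lay without overlap between groups, with log2 changes between 0.80 and 1.06, and Pf4, a platelet and macrophage chemokine, had a change of 1.55 with overlapping groups. Bcl2a1a has near-identical copies, so its counts are uncertain.

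Macrophage genes are given beside them, since the gate admits cells with some C1q. The C1q genes, which the gate capped, were at 288, 294 and 264 CPM of C1qa with anti-VSIG4, against 199.5, 192 and 154 CPM with IgG. The macrophage list (16 genes, C1q included) summed to 4167, 4409 and 5171 CPM with anti-VSIG4, against 2375, 4189 and 4901 CPM with IgG, and the sums overlapped. Of its 12 tested genes 10 were higher and 2 lower with anti-VSIG4, none passed, and the median log2 change was 0.48, beside 0.00 for all genes tested. Their part in the values of Fn1, Spp1, Ctsl and Pf4 was not tested.

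**Figure D5:**
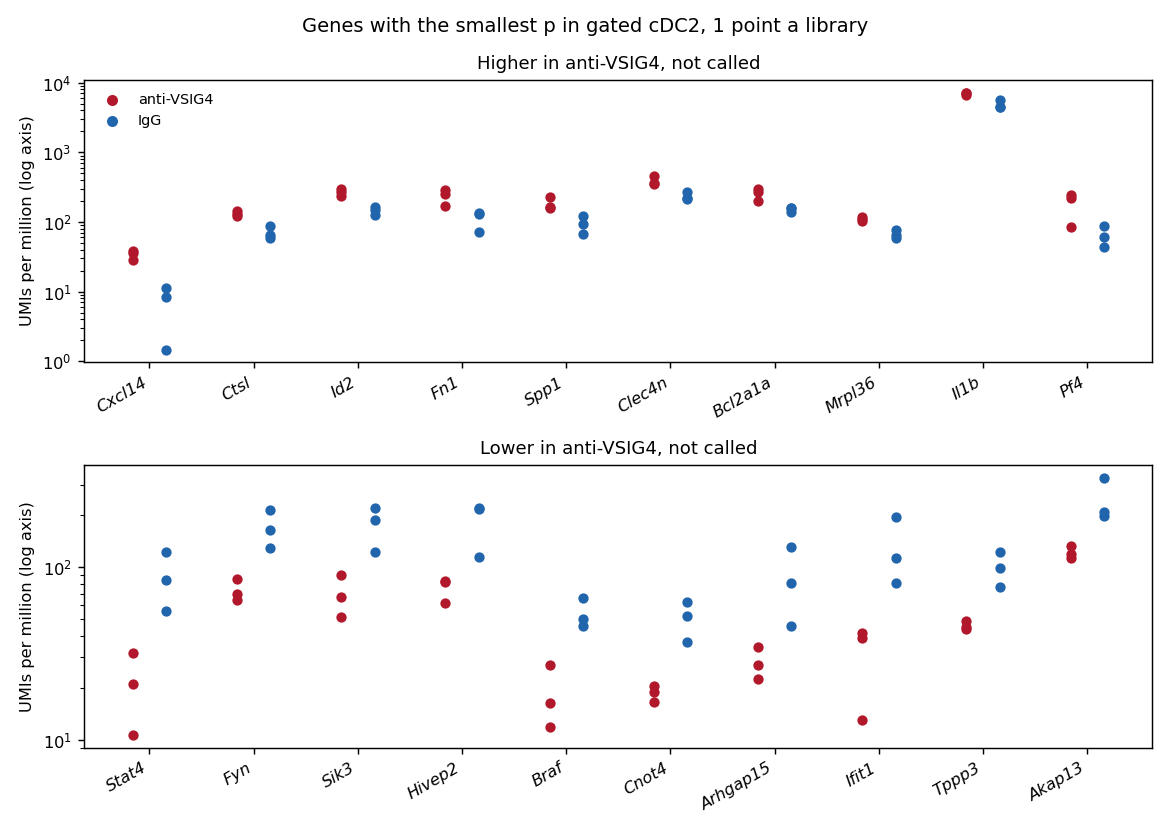
The 20 genes with the smallest p that did not pass, in CPM (log axis), with 1 point a library and anti-VSIG4 left of IgG. Groups overlap for Pf4 alone, at 84.1 CPM in anti-VSIG4 3 and 88.0 CPM in IgG 2.

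Of the 10 genes lower with anti-VSIG4, none passed. Stat4, a transcription factor downstream of interleukin-12, was at 20.95, 10.7 and 31.8 CPM with anti-VSIG4, against 55.9, 84.3 and 123 CPM with IgG (log2 change -1.89 ± 0.37, edgeR adjusted p = 0.355). Fyn, a Src-family kinase, was at 84.9, 69.99 and 64.8 CPM with anti-VSIG4, against 129, 164 and 213 CPM with IgG (-1.12 ± 0.23, edgeR adjusted p = 0.355). Ifit1, an interferon-induced antiviral gene, was at 38.8, 13 and 41.7 CPM with anti-VSIG4, against 81.3, 195 and 112 CPM with IgG (-1.94 ± 0.43, edgeR adjusted p = 0.381). Sik3, Hivep2, Braf, Cnot4, Arhgap15, Tppp3 and Akap13 completed the 10, with log2 changes between -1.48 and -0.93 and no overlap. Of all tested genes 8.75% were lower and 4.5% higher with anti-VSIG4 without overlap between groups. Nuclear RNAs such as Malat1 summed to 795, 521 and 1072 CPM in gated cells with anti-VSIG4, against 1209, 1976 and 4054 CPM with IgG. Without nucleus-like barcodes the change was -1.42 for Stat4, -0.76 for Fyn, -1.88 for Ifit1, -0.74 for Hivep2, -0.97 for Arhgap15 and -1.15 for Tppp3. With all barcodes it was -1.19 for Hivep2, -1.48 for Arhgap15 and -1.02 for Tppp3. Within the few-kind libraries it was -1.76 for Stat4, -0.70 for Fyn, -1.59 for Ifit1, -0.62 for Hivep2 and -0.82 for Arhgap15, and within the many-kind libraries -1.56 for Stat4, -1.40 for Fyn, -1.77 for Ifit1, -1.28 for Hivep2 and -1.47 for Arhgap15. The edgeR adjusted p of Stat4 was 0.0238 with library kind as covariate and 0.0177 without IgG 1. Stat4 did not pass without nucleus-like barcodes, either with or without kind as covariate. It also did not pass with a replicate block, with DESeq2, or when any single library other than IgG 1 was left out.

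Antigen presentation genes showed no passing change. Of 13 class II loading genes outside the gate 11 were tested, with 6 higher and 5 lower with anti-VSIG4 and a median log2 change of 0.04. Ciita, the transactivator that drives class II genes, was at 64.9, 78.3 and 66.7 CPM with anti-VSIG4, against 132, 114.5 and 163 CPM with IgG (log2 change -0.88 ± 0.22, edgeR adjusted p = 0.396). Every anti-VSIG4 library lay below every IgG library, and the change was -0.88 without nucleus-like barcodes. H2-DMb2, whose promoter is printed above, was at 300.7, 313 and 201 CPM with anti-VSIG4, against 329, 169 and 206 CPM with IgG (0.28 ± 0.27, edgeR adjusted p = 0.815), with overlapping groups. H2-Ab1, a gate gene given without a test, was at 12980, 13532 and 14914 CPM with anti-VSIG4, against 12754, 15297 and 18195 CPM with IgG, and the groups overlapped. The 4 class II gate genes summed to 48411, 47793 and 49792 CPM with anti-VSIG4, against 51713, 50453 and 55561 CPM with IgG, with no overlap. By edgeR's log2 change 2 of the 4 were higher and 2 lower. These genes set the gate, so the sums are a description. Of 20 MHC class I genes tested 8 were higher and 12 lower, with a median of -0.075, which was -0.21 within the few-kind and 0.22 within the many-kind libraries.

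The gate genes are given as a description. Plet1 was at 759.5, 465 and 328 CPM with anti-VSIG4, against 503.5, 234 and 343 CPM with IgG. Mgl2 was at 807, 948 and 659 CPM with anti-VSIG4, against 1065, 735 and 892 CPM with IgG. Cd209a was at 60.8, 48.6 and 62.3 CPM with anti-VSIG4, against 169, 78.0 and 37.0 CPM with IgG. Groups overlapped in all 3, and IgG 1 held the highest Cd209a level. Napsa was at 872, 877 and 560 CPM with anti-VSIG4, against 835, 789.8 and 710.1 CPM with IgG, and Flt3 at 30.4, 26.1 and 15 CPM with anti-VSIG4, against 35.9, 16.4 and 34 CPM with IgG. Groups overlapped for both.

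Costimulatory genes had lower sums and cytokine genes higher sums with anti-VSIG4, while no gene of either list passed. The costimulatory and coinhibitory list summed to 1183, 913 and 1297 CPM with anti-VSIG4, against 1353, 1378 and 1749 CPM with IgG, with no overlap. Of its 14 tested genes 4 were higher and 10 lower, none passed, and the median log2 change was -0.31. Cd80, a ligand of CD28, was at 160, 111 and 150.2 CPM with anti-VSIG4, against 190.0, 226 and 243 CPM with IgG (-0.56 ± 0.22, edgeR adjusted p = 0.630). Cd86, the other CD28 ligand, was at 119, 54.6 and 149 CPM with anti-VSIG4, against 135, 175 and 272 CPM with IgG (-0.74 ± 0.34, edgeR adjusted p = 0.690). Groups did not overlap for Cd80 and did for Cd86, and without nucleus-like barcodes the changes were -0.29 for Cd80 and -0.23 for Cd86. The cytokine and chemokine list summed to 14894, 14758 and 17255 CPM with anti-VSIG4, against 11463, 13950 and 9610.4 CPM with IgG, with no overlap, and Il1b made up much of it. Of its 22 tested genes 17 were higher and 5 lower, none passed, and the median was 0.33, with 0.26 without nucleus-like barcodes. Beside Il1b the example with the smallest p was Ccl6, a myeloid chemokine, at 1045, 1451 and 1454 CPM with anti-VSIG4, against 888, 958 and 633 CPM with IgG (0.74 ± 0.23, edgeR adjusted p = 0.517).

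Other lists are given by their counts. Of 16 pattern recognition receptors tested 13 were higher and 3 lower with anti-VSIG4, with a median of 0.34 and Clec4d, a lectin receptor, at 160, 119.8 and 92.8 CPM with anti-VSIG4, against 68.6, 99.4 and 59.2 CPM with IgG, where the groups overlapped. Of 18 dendritic transcription factors tested 6 were higher and 12 lower, with a median of -0.15. Of 22 surface genes of cDC2 outside the gate 11 were higher and 11 lower, with a median of 0.01. Of 21 type I interferon response genes tested 6 were higher and 15 lower, with a median of -0.36, and Oasl2 had a change of -0.81. That median was -0.67 within the few-kind and 0.076 within the many-kind libraries. Of 20 interferon-gamma response genes 12 were higher and 8 lower, with a median of 0.10, which was -0.16 within the few-kind and 0.49 within the many-kind libraries. Glycolysis genes (7 higher and 9 lower of 16, median -0.03) and hypoxia genes (8 higher and 6 lower of 14, median 0.07) stayed near 0, and of 20 dissociation and stress genes 3 were higher and 17 lower, with a median of -0.23, which was -0.072 within the few-kind and 0.060 within the many-kind libraries. None of the genes of these lists passed.

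Whether gated cDC2 and macrophages of the same tumours answered anti-VSIG4 differently was tested with a term for cell class by treatment. Of 11208 genes 3 passed (0.0268%). Fn1 averaged 235 CPM with anti-VSIG4 and 112 CPM with IgG in gated cDC2, against 513 CPM with anti-VSIG4 and 557 CPM with IgG in macrophages. The log2 change in cDC2 exceeded that in macrophages by 1.36 ± 0.21 (edgeR adjusted p = 0.00491). The difference on log2(mean CPM + 1) was 1.22 within the few-kind and 1.47 within the many-kind libraries. Prtn3, a granule protease, averaged 36.4 CPM with anti-VSIG4 and 23.2 CPM with IgG in cDC2, against 58.1 CPM with anti-VSIG4 and 169 CPM with IgG in macrophages (difference 2.18 ± 0.35, edgeR adjusted p = 0.00679). Its macrophage level was 202 and 240.2 CPM in IgG 2 and IgG 3 and 52.7 to 65.7 CPM in the other libraries, and the difference was 1.15 within the few-kind and 2.52 within the many-kind libraries. The Prtn3 call was lost without anti-VSIG4 2 (adjusted p = 0.0575), IgG 2 (0.0863) or IgG 3 (0.0606).

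The third gene, Ifnb1, encodes interferon beta and was named after its values were seen, since it lies under 20 CPM. It had 0 UMIs in gated cDC2 of the 3 anti-VSIG4 libraries, against 9, 32 and 3 UMIs in 4, 3 and 2 cells of the IgG libraries, and 30 of the 32 UMIs in IgG 2 were in 1 cell. With a floor of 3 UMIs over the anti-VSIG4 group, the pooled IgG level was 20.6-fold higher. That value covers counting error only and takes UMIs of the same cell as independent. In gated cDC2 only the IgG libraries could count towards the filter on low counts. Over all barcodes Ifnb1 was at 1.22, 0.386 and 2.83 CPM for anti-VSIG4, against 1.32, 5.42 and 0.678 CPM for IgG, with overlapping groups. Macrophages had 2.74, 0.558 and 5.93 CPM with anti-VSIG4, against 2.02, 9.34 and 0.833 CPM with IgG. The call (edgeR adjusted p = 0.00679) was lost without anti-VSIG4 3 (0.248) or IgG 2 (0.111), and the fitted difference of -9.29 depends on the counts of 0.

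Among further genes that did not pass were Ccl6 (difference 1.04 ± 0.23, edgeR adjusted p = 0.169), Rhoc (1.38 ± 0.30, 0.169) and Cxcl14 (1.90 ± 0.43, 0.178). Against migratory dendritic cells 0 of 6830 genes passed edgeR's test (0%), 329 had an unadjusted p under 0.05, and 3 passed with RLE in place of TMM scaling. With gate genes such as Ccr7 set aside, the smallest p among genes of at least 20 CPM were those of the proteasome activator Psme2 (difference 0.70 ± 0.14, edgeR adjusted p = 0.0637) and the actin-binding peptide gene Tmsb4x (0.37 ± 0.07, 0.0661). Psme2 averaged 696 CPM with anti-VSIG4 and 715 CPM with IgG in cDC2, against 975.5 CPM with anti-VSIG4 and 1583 CPM with IgG in migratory dendritic cells.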

How the data were processed

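Single-cell RNA was measured in 6 tumours, 3 per group, with 1 library a mouse. The authors deposited 1 sparse matrix a library, whose values, as deposited by the authors, are raw UMI counts. PISA 1.0 wrote them, per the file headers, and STAR and Seurat 4.11 are named in the submitters' processing notes. The labels name no build, annotation or settings. Each barcode held at least 1000 UMIs as deposited, so shallower cells are not counted here.

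The gate was applied to every deposited barcode with no further filter, since 0 gated barcodes failed limits of 500 UMIs, 300 genes and 20% mitochondrial UMIs. No doublet caller was run, and leaving out the 6% of cells with most UMIs in each library was an alternative. Members, lists and tests were chosen with earlier results of these data known. The cDC1 and migratory gates used the same class II and C1q limits, with at least 2 UMIs of Xcr1 and Clec9a (cDC1) or at least 5 UMIs of the migratory genes. Macrophages had C1q at 0.3% of UMIs or more and no class II limit. Monocytes had class II under 2%, C1q under 0.3% and at least 2 UMIs of Ly6c2. T cells had at least 3 UMIs of Cd3d, Cd3e, Cd3g and Trac, class II under 0.5% and C1q under 0.3%. The 15% and 5% limits behind library kind, the T cell comparison, the UMI bins and the Plet1 and Cd209a split were set after the values were seen. Gene spans came from GENCODE vM21, matched by symbol for 88.3% of genes.

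Counts were summed per library and tested in R 4.3.3 with edgeR 4.0.16 (TMM, filterByExpr, robust quasi-likelihood fit, Benjamini-Hochberg). Standard errors are the log2 change divided by the square root of F. DESeq2 1.42.0 was an alternative. Class tests kept the library as a term and needed 20 cells a class and library. Shares used an exact permutation test (scipy 1.17.1). The gene test was also run on simulated counts, drawn with a common dispersion for all genes and no difference in library kind. That simulation cannot show how the test behaves where libraries differ in kind, as they do here. The genes named are the gate genes, up to 4 list members of at least 20 CPM, and, as fewer than 10 genes passed, the 10 with the smallest p in each direction. For class tests they are up to 5 genes of at least 20 CPM. In these tests, gene models, receptor segments and gate genes were passed over, and gate genes are given as a description only.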

Additional observations from a re-analysis of the deposited data

Results flagged for a closer look

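In 3 genes the change with anti-VSIG4 differed between gated cDC2 and macrophages by the test of the difference itself (edgeR, adjusted p under 0.05). The difference of log2 changes was 1.36 for Fn1, 2.18 for Prtn3 and -9.29 for Ifnb1. Fn1 kept its call without each of the 6 libraries in turn, with an adjusted p between 4.66e-05 and 0.0253. For Prtn3 both groups overlapped in gated cDC2, at 17.8, 51.0 and 40.5 CPM with anti-VSIG4, against 16.9, 27.7 and 25.2 CPM with IgG. Ifnb1 rests on 44 UMIs of 9 gated IgG cells.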

How the results depend on the processing

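The edgeR count of passing genes in gated cDC2 was 1, and it was 36 with no filter on low counts, 5 with library kind as covariate, 19 within few-kind and 36 within many-kind libraries, 7 with DESeq2 (where 16565 genes had no adjusted p), 0 with C1q under 0.1%, 0 without the 6% of cells with most UMIs, and 2 with kind as covariate and no nucleus-like barcodes, an alternative chosen after seeing the data. Leaving out 1 library gave 0 to 9. Within a kind a lone library is assumed to vary like the others. Csta2 was not tested under the C1q and UMI limits. Beside Csta2, Fn1, Spp1, Oasl1 and Stat4 passed with kind as covariate, and Fn1, Fyn, Hivep2, Id2, Pf4, Sik3 and Spag9 passed with DESeq2. Against macrophages 34 genes passed with no filter, and 1 to 105 with 1 library left out (105 without IgG 1). Against migratory cells 3 passed with RLE scaling, 1 with no filter, and 0 to 3 with 1 library left out. The cDC2 share of barcodes turned to -0.440 points within few-kind libraries, and ran from 0.170 to 0.723 with 1 library left out. The share of dendritic cells turned to -1.57 points with C1q under 0.1%, and ran from -1.63 to 3.67 with 1 library left out. The log2 change turned to 0.078 for Ccr2 within many-kind libraries, and to -0.077 for Pclaf and -0.063 for H2-DMb2 within few-kind libraries. The cause was not tested. Of the values of 57 single results under the alternatives, 879 kept direction and side of the threshold, 50 came to pass, 9 no longer passed and 3 turned. Same-numbered libraries deviated with correlations of 0.148, -0.123 and 0.260. Differently numbered libraries were not compared, so these values cannot decide whether the numbers pair the mice. A replicate block gave 3 passing genes and left the share difference at 0.393 points (p = 0.75, exact permutation). Depth limits genes under about 20 CPM, which rest on few UMIs a library, and 3 mice a group limit every share.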
